A study of Mus musculus with 8 samples.

Results

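*Cdo1* encodes cysteine dioxygenase, and it is described here with the genes of the neighbouring steps of cysteine and taurine metabolism: *Csad*, *Ado*, *Got1*, *Cth* and *Cbs*, and the taurine transporter gene *Slc6a6*. *Cdo1* was picked by its strong fall in the mutant ventricles, and the other 6 genes were taken because of their place in the pathway. Earlier results of these data were known when the genes were chosen. These are 7 of the 53465 genes in the table of counts, and all 7 were among the 14451 genes with enough counts to be tested. Ventricles were taken from mouse embryos at embryonic day 9.5 (E9.5), and polyadenylated RNA was sequenced in 4 libraries labelled WT (control) and 4 labelled KO, whose genotype is *Nrg-1flox;Tie2-Cre*. *Nrg1* encodes neuregulin-1, a growth factor that the endocardium sends to the heart muscle, and the comparison asks what its deletion does to ventricular transcripts. *Tie2-Cre* is active in endothelium and endocardium and also in blood cell lineages, whereas the RNA came from the whole ventricle. The labels do not give the alleles carried by the WT embryos, nor whether a library came from 1 embryo or from a pool, so the p-values measure the spread between these libraries.

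Cells take up cysteine through transporters or make it from methionine by transsulfuration, in which cystathionine beta-synthase (*Cbs*) and cystathionine gamma-lyase (*Cth*) act in turn. Cysteine dioxygenase oxidises cysteine to cysteine sulfinate, which cysteine sulfinate decarboxylase (*Csad*) turns into hypotaurine, the precursor of taurine, and which the cytosolic aspartate aminotransferase (*Got1*) can instead send towards pyruvate and sulfite. Cysteamine dioxygenase (*Ado*) makes hypotaurine from cysteamine, a breakdown product of coenzyme A, and *Slc6a6* encodes the transporter that brings taurine into cells. Taurine is among the most abundant free amino acids of heart muscle.

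Total counts per library ranged from 11852506 to 14360427 in WT and from 12430483 to 14223984 in KO. *Nrg1*, the deleted gene, had 121 to 173 counts in WT and 59 to 72 in KO (log2 fold change −1.07, SE 0.14, edgeR adjusted p = 0.00268). Heart muscle markers were high in all 8 libraries, with summed levels of 12 genes of 35240 to 38800 CPM (counts scaled to library size) in KO and 37380 to 39560 in WT, and none of the 12 passed the test. Erythroid markers stood apart. All 10 were higher in KO, where their summed level was 19820 to 68680 CPM against 6689 to 8089 in WT, and none was at 0. Of 7 epicardial markers tested, 2 were higher in KO (summed level of the list 198.5 to 330.9 CPM against 127.2 to 193.6), and of 7 outflow tract markers 4 were lower (177.7 to 259.7 CPM against 282.8 to 312.3). Of 10 endocardial markers, 1 was lower, with summed levels of 818.9 to 947.7 CPM in KO and 942 to 1026 in WT. Over all genes tested, 5.11% were higher and 3.50% lower in KO. None of 8 atrial, 3 neural or 1 liver and yolk sac marker tested passed, and the liver and yolk sac list summed to 2.967 to 9.411 CPM in KO and 3.666 to 4.056 in WT. In RNA of a whole tissue, fewer cells of a type and less RNA per cell cannot be told apart.

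*Cdo1* occupies bases 46713193 to 46728395 of chromosome 18 in GRCm38 (minus strand) and has up to 5 exons. Its counts were 301, 306, 260 and 326 in WT_1 to WT_4, and 73, 112, 101 and 87 in KO_1 to KO_4. After scaling of library sizes by the trimmed mean of M-values (TMM), the level was 23.0, 21.9, 21.4 and 22.0 CPM in WT and 6.19, 8.11, 7.27 and 7.17 CPM in KO. Every KO library lay far below every WT library, and the spread within each genotype was small beside the gap. The mean was 22.1 ± 0.674 CPM in WT and 7.18 ± 0.786 CPM in KO (SD, n = 4), a level 3.07-fold lower in KO with a log2 fold change of −1.62 (SE 0.098). Since *Cdo1* was chosen by this difference, the values describe the gene and no test is given.

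*Slc6a6* was the other gene of the 7 with a large difference. It occupies bases 91684053 to 91759066 of chromosome 6 (plus strand) and has up to 15 exons. Its level was 148.6, 152.5, 146.4 and 135.3 CPM in WT_1 to WT_4 and 66.3, 84.7, 96.1 and 75.1 CPM in KO_1 to KO_4. The genotypes did not overlap, and the highest KO library stayed well below the lowest WT library. *Slc6a6* fell 1.81-fold in KO, from 145.7 ± 7.37 to 80.6 ± 12.8 CPM (log2 fold change −0.85, SE 0.10, 95% interval −1.09 to −0.62, edgeR adjusted p = 0.00208). The fall passed the test with each of the 8 libraries left out in turn, with log2 fold changes of −0.95 to −0.77. An unverified gene model, *Gm44981*, shares 117 exon bases with *Slc6a6* on the opposite strand, but it had at most 2 counts in any library.

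**Figure D1:**
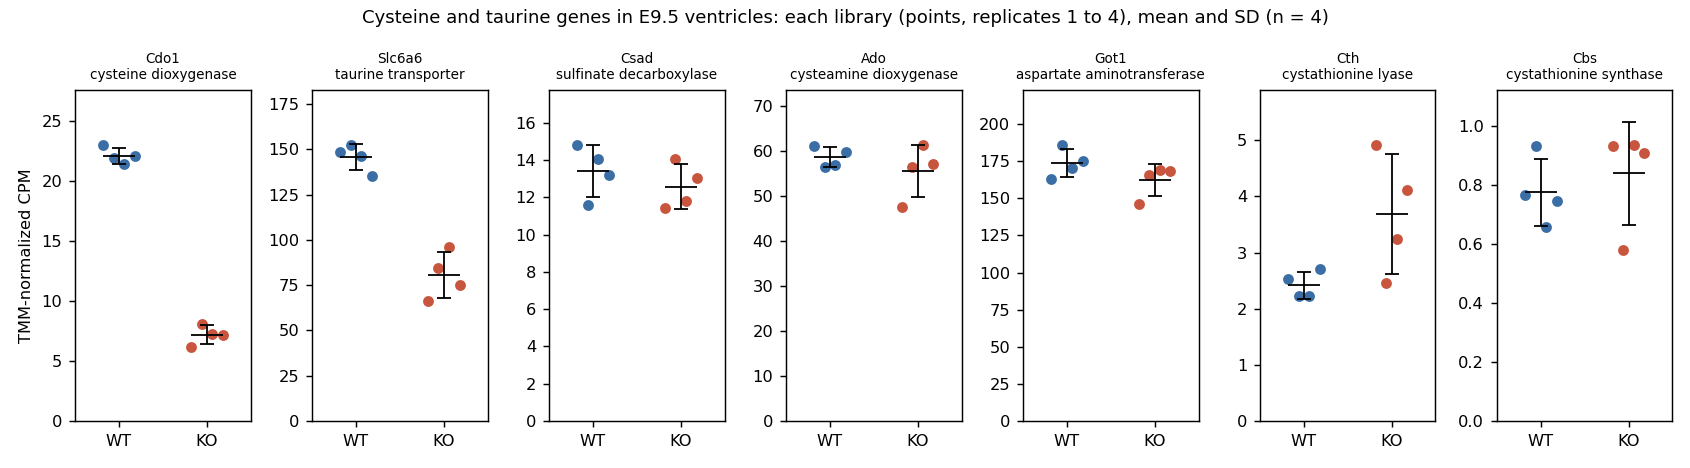
TMM-normalized CPM of the 7 genes in each library (points), with the mean and SD of 4 libraries per genotype (bars); each panel has its own linear axis from 0. The WT and KO points are apart for Cdo1 (22.1 against 7.18 CPM) and Slc6a6 (145.7 against 80.6 CPM) and overlap for the other 5 genes.

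The enzymes downstream of *Cdo1* and the parallel route to hypotaurine did not pass the test. *Csad*, which spans bases 102176999 to 102204724 of chromosome 15 (minus strand), had 14.8, 11.6, 14.1 and 13.2 CPM in WT and 11.5, 14.1, 11.8 and 13.02 CPM in KO. These values overlap throughout. Its means were 13.4 ± 1.38 CPM in WT and 12.6 ± 1.19 CPM in KO, a KO to WT ratio of 0.939 with a 95% interval of 0.791 to 1.11 (edgeR adjusted p = 0.661). *Csad* shares 278 of its 3831 exon bases with *Zfp740* on the opposite strand, a gene with 932 to 1136 counts per library, and whether the counting used strand is not given in the sources used here, so a part of the *Csad* counts is uncertain.

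*Ado* is a gene of a single exon at bases 67544511 to 67548955 of chromosome 10 (minus strand). Its level was 61.0, 56.5, 56.9 and 59.8 CPM in WT and 47.5, 56.3, 61.4 and 57.0 CPM in KO. KO_1 was the lowest of the 8 libraries and KO_3 the highest. The KO to WT ratio was 0.949, with an interval of 0.841 to 1.07 (edgeR adjusted p = 0.600).

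*Got1* (chromosome 19, bases 43499752 to 43524605, minus strand) had 163.4, 186.1, 170.6 and 175.2 CPM in WT and 146.5, 165.9, 169.2 and 168.6 CPM in KO. KO_1 again had the lowest value, and the other 3 KO libraries lay within the range of WT. The ratio was 0.935, with an interval of 0.845 to 1.035 (edgeR adjusted p = 0.399). For *Csad*, *Ado* and *Got1* alike, the lower bounds of these intervals, 0.791 at the least, lie above the ratio of 0.553 measured for *Slc6a6*, while smaller differences lie inside them.

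The transsulfuration genes were at low counts. *Cth* (chromosome 3, bases 157894248 to 157925077, minus strand) had 33, 31, 27 and 40 counts in WT and 58, 34, 45 and 50 in KO, or 2.52, 2.22, 2.22 and 2.70 CPM in WT and 4.92, 2.46, 3.24 and 4.12 CPM in KO. KO_2 lay within the WT range, and the other 3 KO libraries lay above it. The mean level was 2.42 ± 0.239 CPM in WT and 3.68 ± 1.07 CPM in KO, a ratio of 1.51 with an interval of 1.06 to 2.16, and the difference did not pass the test after adjustment over all genes (log2 fold change 0.60, SE 0.23, edgeR adjusted p = 0.139). Without KO_2 the log2 fold change was 0.76 and the adjusted p was 0.049. *Cbs* (chromosome 17, bases 31608894 to 31637238, minus strand) had only 8 to 13 counts in every library of either genotype. Its levels of 0.774 ± 0.115 CPM in WT and 0.838 ± 0.173 CPM in KO gave a ratio of 1.07 with an interval of 0.708 to 1.63 (edgeR adjusted p = 0.877). Differences in *Cbs* within those bounds are compatible with these counts.

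Of the 6 genes other than *Cdo1*, 1 passed the test and it was lower in KO, which is 16.7% of the 6. Over all 14451 genes, 8.62% passed in either direction, 3.50% as lower and 5.11% as higher in KO. In 1 of the 6 genes, *Slc6a6*, the 4 KO values did not overlap the 4 WT values, as was the case for 19.0% of all genes tested. The median log2 fold change of the 6 genes was −0.083, against −0.0014 for all genes. A single call among 6 genes is no result about the group.

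To compare the genes with one another, CPM were divided by the length of all annotated exons of a gene in kb. In WT, *Got1* had the highest level per kb, 68.5 ± 3.74, followed by *Slc6a6* with 17.2 ± 0.871. *Cdo1* and *Ado* came next with 13.4 ± 0.410 and 13.2 ± 0.498 CPM per kb. Their ranges of 13 to 13.98 and 12.72 to 13.73 overlapped, so these neighbours in the order did not differ beyond their spread. *Csad* followed with 3.50 ± 0.36, then *Cth* with 0.866 ± 0.0855 and *Cbs* with 0.103 ± 0.0153 CPM per kb. Among 14434 tested genes with a length, *Cdo1* in WT stood at percentile 74.5 of the level per kb, *Slc6a6* at 80, *Got1* at 95.3 and *Ado* at 74.1. *Csad* stood at percentile 40.6, *Cth* at 16.7 and *Cbs* at 0.6.

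In KO, *Got1* was again first with 64.0 ± 4.26 CPM per kb, and *Ado* (12.5 ± 1.31, range 10.7 to 13.8) and *Slc6a6* (9.52 ± 1.51, range 7.84 to 11.4) overlapped. *Cdo1* had 4.37 ± 0.478 CPM per kb, near *Csad* with 3.28 ± 0.311. With the length of the longest coding transcript in place of all exons, the means of both pairs changed order, with 13.02 for *Slc6a6* against 12.5 for *Ado* and 4.504 for *Cdo1* against 5.519 for *Csad*, so the order within these pairs in KO depends on the length used. In WT, *Cdo1* was the higher of the pair with either length, with 13.8 against 5.89 by the longest coding transcript.

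**Figure D2:**
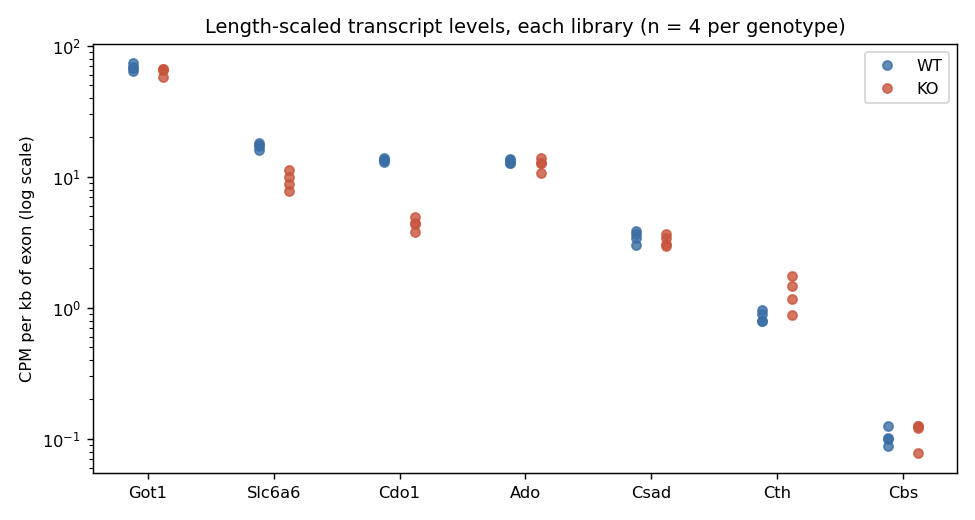
Level of each gene in every library in CPM per kb of annotated exon, on a log axis, with 4 WT and 4 KO libraries; no error bars are drawn. Cdo1 and Ado lie side by side in WT (13.4 and 13.2 CPM per kb), while Cdo1 in KO (4.37) lies near Csad (3.28).

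*Cdo1* and the other genes were also set against the share of hemoglobin counts, because erythroid markers differed between the genotypes. Hemoglobin genes took 0.671% to 0.799% of the counts in WT and 6.26%, 1.93%, 3.8% and 3.89% in KO_1 to KO_4. Within KO, *Cdo1* followed the reverse order, from 8.11 CPM in KO_2 down to 6.19 CPM in KO_1, whereas *Cth* followed the same order, from 2.46 CPM in KO_2 up to 4.92 CPM in KO_1. *Slc6a6* was lowest in KO_1 as well, with 66.3 CPM, and highest in KO_3. In KO_2, whose hemoglobin share was the smallest in KO but above that of every WT library, the levels were 8.11 CPM for *Cdo1* and 84.7 CPM for *Slc6a6*. With KO_1 and the erythroid, hemoglobin and mitochondrial genes left out, the log2 fold change of *Cdo1* was −1.54 and that of *Slc6a6* was −0.76 (edgeR adjusted p = 0.000373). Of the tested genes of the wider pathway, *Slc1a4*, *Slc1a5*, *Slc3a2*, *Gclm*, *Mpst*, *Chac2*, *Gsr* and *Pank4* also followed the order of the hemoglobin share within KO. *Mat2a*, *Suox*, *Pank1* and *Vnn1* followed the reverse order. The share of all genes in either order was not taken. The part of blood RNA in the levels of these pathway genes and in the differences of *Cdo1*, *Slc6a6* and *Cth* was not tested.

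**Figure D3:**
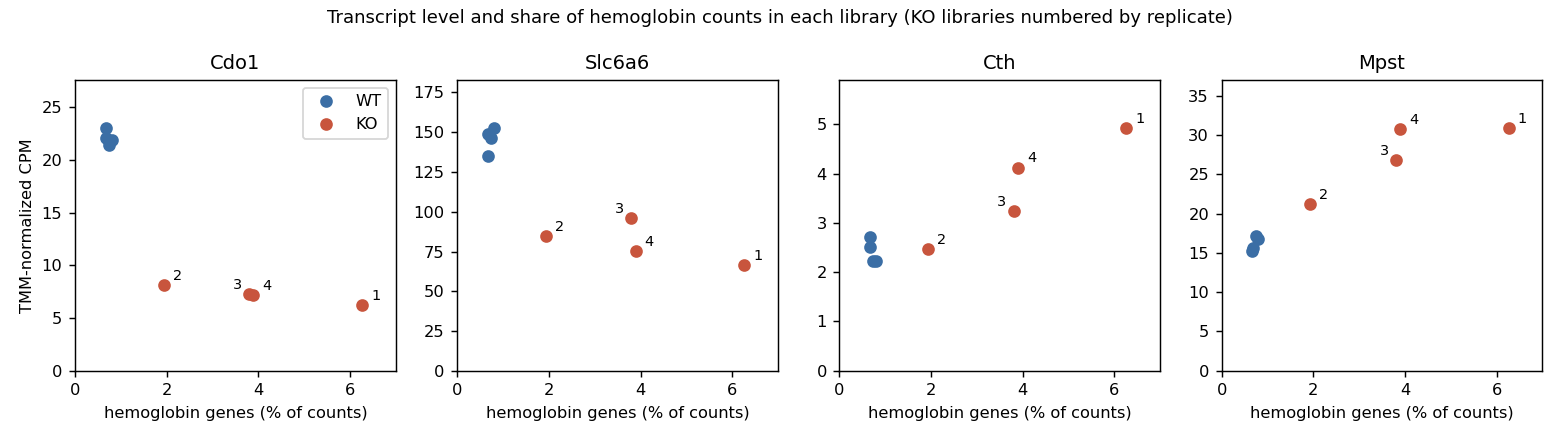
TMM-normalized CPM of Cdo1, Slc6a6, Cth and Mpst (y axis, linear from 0) against the percentage of counts in hemoglobin genes (x axis) in each library, with KO libraries numbered by replicate. KO_1, with 6.26% hemoglobin counts, has the lowest Cdo1 and Slc6a6 and the highest Cth and Mpst of the KO libraries.

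Likeness to *Cdo1* was measured by Pearson's r of log2 CPM over the 8 libraries and is a description, since both genotypes are pooled in it and the libraries share their depth and composition. The 5 genes most like *Cdo1* were *Sorcs2* (r = 0.994), *Pdzd8* (0.993), *Stx18* (0.992), *Cgnl1* (0.991) and *Pafah1b2* (0.989). They differed in the size of the difference, with log2 fold changes of −1.38 for *Sorcs2*, −0.41 for *Cgnl1* and −0.26 to −0.18 for the other 3. *Slc6a6* had r = 0.965 with *Cdo1*, and the other members had r of 0.583 (*Got1*), 0.453 (*Ado*), 0.415 (*Csad*), −0.278 (*Cbs*) and −0.777 (*Cth*). Over deviations from the genotype means, r with *Cdo1* was 0.729 for *Ado*, 0.647 for *Slc6a6*, 0.62 for *Csad*, 0.525 for *Got1*, −0.592 for *Cbs* and −0.82 for *Cth*. The 5 genes highest by that measure were *Gpx7* (0.992), *Pipox* (0.992), *P3h4* (0.986), *Nqo2* (0.985) and *Angpt1* (0.982), and none of them was among the 5 highest over all libraries. By either measure these genes were picked as the highest among all genes tested, over only 8 libraries. *Pipox* was at a low level, with a mean of 1.48 CPM in WT and 1.78 CPM in KO.

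The wider pathway was read from 47 further genes in lists of the methionine cycle, cysteine oxidation, transport, glutathione, sulfide and sulfite oxidation, and coenzyme A. Of the 38 tested, 4 were higher in KO (10.5%) and 1 was lower, so 13.2% passed in either direction, against 5.11% higher, 3.50% lower and 8.62% in either direction over all genes tested. Both counts moved with single libraries: with 1 library left out, the 5 pathway genes called became 3 (without any 1 WT library) to 11 (without KO_1), and the 1245 called over all genes became 509 (without WT_1) to 2523 (without KO_1). The median log2 fold change of the 38 genes was 0.036, and 14 (36.8%) had values that did not overlap between the genotypes, against 19.0% of all genes. The lists were chosen with earlier results of these data known, so these shares are descriptions and no test of the pathway. Erythroid markers differed between the same libraries, as given above, and their part in these counts was not tested.

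In transport, *Slc1a4* and *Slc1a5*, which encode exchangers of small neutral amino acids, were higher in KO while *Slc6a6* was lower. *Slc1a4* had 12.5, 14.3, 12.7 and 12.7 CPM in WT and 39.9, 19.7, 21.4 and 21.8 CPM in KO. KO_1 stood far above the other 3 KO libraries, and these were still above WT. The log2 fold change was 0.98 (SE 0.21, edgeR adjusted p = 0.0212), and without KO_1 it was 0.69. *Slc1a4* did not pass the test when any 1 WT library was left out, with adjusted p of 0.0520 to 0.0721. *Slc1a5* rose less, with a log2 fold change of 0.35 (adjusted p = 0.0115). *Slc3a2*, the shared heavy chain of several exchangers, did not pass in the edgeR test of all 8 libraries (log2 fold change 0.76, adjusted p = 0.0653). Its level was 67.4 to 68.3 CPM in WT and 187.0, 84.6, 92.1 and 95.8 CPM in KO_1 to KO_4, so every KO library was above WT and KO_1 was far above the rest. *Slc3a2* passed in DESeq2, and in edgeR without a filter on low counts, without KO_1 or without KO_2. The log2 fold changes of the other tested transporter genes, which did not pass, were −0.05 for *Slc36a1*, −0.14 for *Slc6a13*, which also carries taurine, and 0.51 for the cystine carrier *Slc7a11* (adjusted p = 0.465).

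In sulfide and sulfite oxidation, 2 of 6 genes tested were higher in KO, as were 5.11% of all genes, and these 2 are close neighbours. *Mpst*, which encodes the sulfurtransferase that acts on mercaptopyruvate made from cysteine, had 15.7, 16.8, 17.1 and 15.2 CPM in WT and 30.9, 21.2, 26.8 and 30.7 CPM in KO. No KO value reached down to WT, and KO_2 was the lowest KO library. The log2 fold change was 0.76 (SE 0.12, edgeR adjusted p = 0.00529), and without KO_1 and the erythroid, hemoglobin and mitochondrial genes it was 0.71 (adjusted p = 0.00319). *Tst*, the gene for rhodanese, which transfers sulfur to cyanide, rose with a log2 fold change of 0.74 (SE 0.14, adjusted p = 0.0129). *Mpst* and *Tst* lie on chromosome 15, transcribed away from each other, with 509 bases between their annotated starts. *Kyat1*, *Suox*, *Ethe1* and *Kyat3* had log2 fold changes of 0.15, −0.07, −0.01 and −0.03 and did not pass.

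Of 6 methionine cycle genes tested, 1 was lower in KO, as were 3.50% of all genes. *Mat1a*, which encodes the liver type of methionine adenosyltransferase, fell, with 0.509 to 1.65 CPM in KO against 1.81 to 2.58 CPM in WT (log2 fold change −1.22, SE 0.33, edgeR adjusted p = 0.0499). That call was just inside the threshold of 0.05 and was lost with 6 of the 8 libraries left out in turn, with adjusted p of up to 0.124, and the levels are low. *Mat2a*, *Ahcy*, *Mat2b* and *Mtr*, which were more abundant, had log2 fold changes of −0.26, 0.11, −0.001 and −0.04 and did not pass in the edgeR test of all 8 libraries. Without KO_1, *Ahcy* passed.

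In the glutathione list, none of 10 genes tested passed in the edgeR test of all 8 libraries, although 4 had an unadjusted p under 0.05. The share of all genes under that p was not taken, here or for the coenzyme A genes below. Such counts are no result about the lists. The subunits of glutamate-cysteine ligase, which uses cysteine for glutathione, had log2 fold changes of 0.96 (*Gclm*, adjusted p = 0.0532) and 0.38 (*Gclc*, adjusted p = 0.0537). *Gclm* had 47.4 to 57.1 CPM in WT and 175.9, 63.5, 85.8 and 86.7 CPM in KO_1 to KO_4, so KO_1 held its highest value by far. *Chac1*, whose enzyme degrades glutathione, had the largest log2 fold change of the tested pathway genes, 2.98 (SE 0.90, adjusted p = 0.0717), with 0.406 to 0.74 CPM in WT and 13.6, 2.61, 0.863 and 1.07 CPM in KO_1 to KO_4. Its KO values lay above WT, with KO_1 far above the rest. These 3 genes passed in DESeq2, where 10 genes of the wider pathway passed rather than 5, and in edgeR without a filter on low counts or without KO_1. *Gclc* and *Gclm* also passed in edgeR with at least 10 counts in every library or without KO_2, *Gclc* without the hemoglobin and mitochondrial genes, and *Chac1* without KO_3. *Chac2*, a relative of *Chac1*, passed in DESeq2 as well (edgeR log2 fold change 0.76, adjusted p = 0.0784). *Gsr* and *Oplah* had log2 fold changes of 0.07 and 0.21. None of 8 coenzyme A genes tested passed in the edgeR test of all 8 libraries, although *Ppcs*, *Ppcdc* and *Coasy* had an unadjusted p under 0.05 (log2 fold changes −0.29, 0.26 and 0.235). The most abundant genes *Pank3*, *Pank2*, *Pank4* and *Vnn1*, the gene of the enzyme that releases cysteamine, had log2 fold changes of −0.15, −0.06, 0.12 and −0.03. Without KO_1, *Pank3* passed. *Got2*, the mitochondrial partner of *Got1*, and *Fmo1*, whose enzyme oxidises hypotaurine to taurine, had 0.03 and −0.50 (adjusted p = 0.825 and 0.585), and *Gadl1*, a relative of *Csad*, had at most 9 counts in any library.

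**Figure D4:**
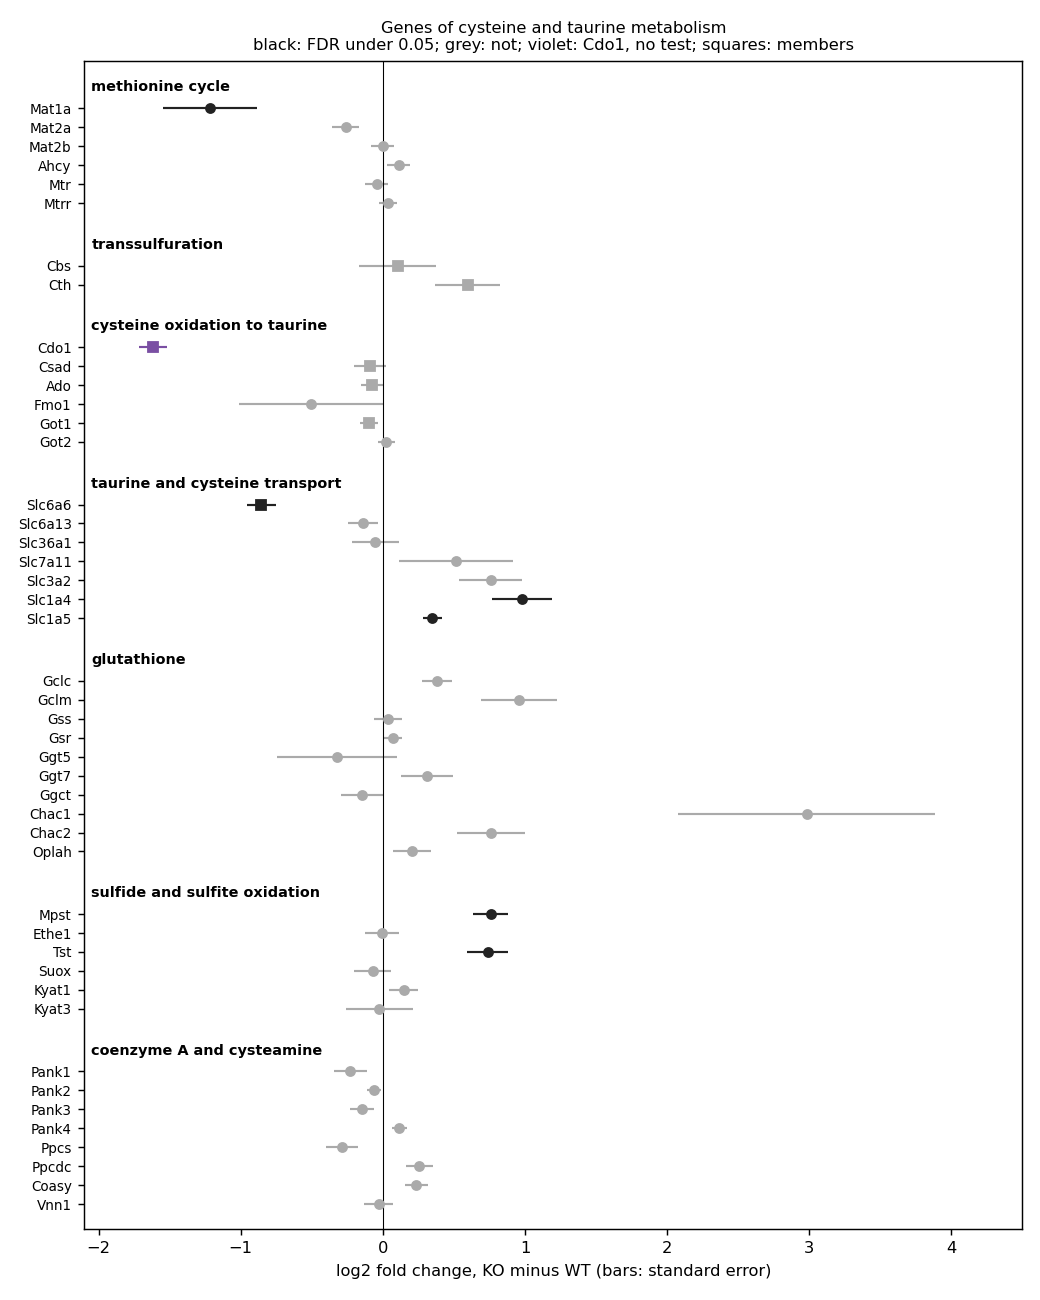
Log2 fold change (KO minus WT, x axis) with its standard error for the tested genes of 7 pathway lists; squares are the 7 genes described, circles the other genes, black marks an FDR under 0.05, grey marks none and violet marks Cdo1, which has no test. Cdo1 (−1.62), Mat1a (−1.22) and Slc6a6 (−0.85) lie farthest to the left, while Slc1a4, Slc1a5, Mpst and Tst, which passed, lie to the right of 0; Chac1 (2.98), which did not pass, lies farthest to the right.

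Promoter windows of RefSeq (GRCm38.p6, from 250 bases before to 50 after a gene's start) were matched for 4 of the 7 genes, *Csad*, *Ado*, *Cbs* and *Got1*, and for *Slc1a4* and *Mpst* among the 5 wider pathway genes that passed. They were searched on both strands for TGATGNAA, the C/EBP-ATF response element that ATF4 binds at amino acid genes, and for TGACNNNGC, the core of the antioxidant response element that Nrf2 binds. Of all 32851 windows, 3.97% held the first and 12.4% the second motif. The first was found in the windows of *Got1* (minus strand, chr19:43524556-43524855, with its first base at −102 from the start) and *Slc1a4* (minus strand, chr11:20332664-20332963, at −4), and the second in 1 of 3 windows of *Mpst* (plus strand, chr15:78406551-78406850, at −12). These 3 windows, those with a match, are shown with the motif in capitals, the first motif in a gene that did not pass and in another that rose, and the second motif in a gene that rose:
Got1: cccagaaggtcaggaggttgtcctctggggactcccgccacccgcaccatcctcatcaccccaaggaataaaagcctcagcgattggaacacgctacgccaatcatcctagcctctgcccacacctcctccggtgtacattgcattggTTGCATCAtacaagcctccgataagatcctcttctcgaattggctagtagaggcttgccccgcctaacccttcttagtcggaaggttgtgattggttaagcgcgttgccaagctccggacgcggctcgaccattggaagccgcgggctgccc
Slc1a4: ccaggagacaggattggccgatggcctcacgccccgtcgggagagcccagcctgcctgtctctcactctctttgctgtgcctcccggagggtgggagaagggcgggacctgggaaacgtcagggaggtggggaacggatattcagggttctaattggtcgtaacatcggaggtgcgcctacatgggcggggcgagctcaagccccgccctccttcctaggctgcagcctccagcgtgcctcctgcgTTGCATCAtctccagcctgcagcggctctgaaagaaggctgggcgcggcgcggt
Mpst: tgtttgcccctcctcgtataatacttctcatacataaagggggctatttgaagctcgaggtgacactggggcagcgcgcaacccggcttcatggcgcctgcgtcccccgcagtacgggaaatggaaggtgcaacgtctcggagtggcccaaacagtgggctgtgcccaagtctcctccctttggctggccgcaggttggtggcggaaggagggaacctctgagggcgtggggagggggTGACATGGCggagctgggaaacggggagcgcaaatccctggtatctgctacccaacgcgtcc
In *Got1* and *Slc1a4* the motif reads on the opposite strand of the window. The level of *Got1* had a KO to WT ratio of 0.935, while *Slc1a4* and *Mpst* rose. The windows of *Csad*, *Ado* and *Cbs* held neither set of letters.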

How the data were processed

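Polyadenylated RNA of E9.5 ventricles was sequenced in single reads. Per the labels, the authors made expected counts with cutadapt and RSEM 1.3.1 on GRCm38; the aligner and the use of strand are not given in the sources used here. The deposited expected counts, not scaled for depth or length, were rounded to whole numbers. All 8 sample columns were used, and 53274 of 53465 genes were given a symbol. KO and WT were compared with edgeR 4.0.16 in R 4.3.3 (TMM, filterByExpr by genotype, quasi-likelihood test, Benjamini-Hochberg adjustment over 14451 genes, threshold 0.05). The SE is the log2 fold change over the square root of F. The script was tested on simulated data. No pair of replicates was alike within sampling noise (lowest ratio of chi-square to its degrees of freedom 3.77), and every library was kept as its own replicate. Exon lengths and positions come from GENCODE M21 (GRCm38). The members and lists were chosen with earlier results of these data known. The text names the 7 members, pathway genes that passed, up to 4 of the most abundant that did not per list, and the 5 genes most like *Cdo1* by each measure. *Gadl1*, *Chac1*, *Chac2*, *Pank1*, *Ppcs*, *Ppcdc*, *Coasy* and the calls of *Gclc* and *Gclm* under alternatives were named after their values were seen. The alternatives tried were limma-voom (limma 3.58.1), DESeq2 1.42.0, 3 other scalings, 2 filters on low counts, a replicate block and leaving out each library. A gene first put in the lists was taken out of them and is not reported here. Leaving out KO_1 with the erythroid genes, which also took out the hemoglobin and mitochondrial genes, was added after seeing the data.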

Additional observations from a re-analysis of the deposited data

Results flagged for a closer look

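In 4 of 26 groups of 4 libraries checked, 1 library stood far from the other 3, by the gap to its nearest neighbour as a share of the group's whole range, both on the scale of log2 CPM with a prior count of 2. Chance marks about 1 in 20 such groups, or 1.3 here. The 26 groups do not cover every gene named in this report. *Cbs* in KO was lowest in KO_2, with a gap of 0.933 of the range, at 0.579 CPM against 0.907 to 0.935, which rests on 8 counts against 11 to 13. *Got1* in KO was lowest in KO_1 (gap 0.863), with 146.5 CPM against 165.9 to 169.2. *Slc1a4* in KO was highest in KO_1 (gap 0.853), with 39.9 CPM against 19.7 to 21.8, and in WT it was highest in WT_2 (gap 0.849), with 14.3 CPM against 12.5 to 12.7. KO_1 is also the library with the largest hemoglobin share, 6.26% of its counts.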

How the results depend on the processing

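*Cdo1* kept its fall in 8 alternatives with all libraries (log2 fold change −1.63 to −1.58) and with each library left out (−1.67 to −1.55). Since *Cdo1* was chosen by its fall in these same libraries, these values are a description. *Slc6a6* passed the test in all 8 (−0.87 to −0.82) and in each leave-one-out fit, and neither *Csad*, *Ado*, *Got1* nor *Cbs* passed in any. DESeq2 gave no adjusted p for *Cbs*. Of the 6 members other than *Cdo1*, 1 to 2 passed with a library left out, the second being *Cth* without KO_2 (0.428 to 0.76 over the left-out libraries). Without KO_1 and the erythroid genes, a fit that also left out the hemoglobin and mitochondrial genes, *Ado* turned to 0.002. Genes called numbered 1245, but 616 with the replicate block, 509 to 2523 with a library left out (highest without KO_1, lowest without WT_1) and 2484 without KO_1 and the erythroid genes. Lower calls fell from 506 to 337 under scaling to cardiomyocyte markers. Pathway calls numbered 5, but 10 in DESeq2 and without KO_1 and the erythroid genes, 8 without a filter on low counts, 3 with the replicate block, and 3 to 11 with a library left out (highest without KO_1, lowest without any 1 WT library). The cause was not tested. *Mat1a* did not pass in 4 of 7 alternatives that tested it (adjusted p up to 0.107), and *Tst* not with the block (0.0564). Labels number the replicates but name no pairing, deviations of same-numbered libraries correlated at −0.091 to 0.019, and 0 libraries correlated best with their own number. The block left *Slc6a6* called (−0.87, adjusted p = 0.0135). The filter of 10 counts in every library left no value for *Cbs* and *Mat1a*. No scaling moved the median of all genes by more than 0.035. Counts of 8 to 13 per library limit the precision for *Cbs*.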
